A study of Homo sapiens with 3 samples.

Results

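Semaphorins are secreted, transmembrane or membrane-anchored guidance proteins that share a sema domain, plexins are the receptors through which they signal, and neuropilins are co-receptors that bind secreted semaphorins and form complexes with class A plexins. The genes of these families were taken from the array by symbol alone, as every semaphorin of classes 3 to 7, every plexin of the A to D subfamilies, and NRP1 and NRP2. The rule gave 31 of the 43316 genes on the array: 20 semaphorins, 9 plexins and 2 neuropilins. Their mRNA levels were measured in NCI-H1975 (H1975), a human non-small cell lung cancer line with mutated EGFR that is sensitive to osimertinib, an EGFR tyrosine kinase inhibitor, and in OR1 and OR2. These are osimertinib-resistant lines, called clones in the study's methods, that were selected from H1975 in separate flasks with osimertinib raised in steps to 2 μmol/L during 4 months. All 3 lines were kept in the same serum-containing medium. Whether the drug was present when RNA was taken is not given in the sources used here. Each line was measured on 1 array, so the difference between any 2 lines had no replicate check and is given without a p-value. Each resistant line stands for 1 selection, and a change that belongs to the resistance cannot be told apart from one that belongs to that flask or that RNA.

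Plexins carry a GTPase-activating domain for small RAS and RAP proteins in their cytoplasmic part, and ligand binding turns that domain on and reorganizes the actin cytoskeleton and adhesion. Class 3 semaphorins are secreted and mostly need a neuropilin, classes 4 to 6 are transmembrane proteins that bind plexins directly, and SEMA7A is held in the membrane by a lipid anchor. In lung cancer the family is known mainly through SEMA3B and SEMA3F, neighbours on the short arm of chromosome 3 in a region often lost in these tumours, and through the neuropilins, which also bind vascular endothelial growth factors. In epithelial cells SEMA4D and its receptor PLXNB1 are known to act together with the receptor tyrosine kinases MET and ERBB2.

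Levels are given as scaled intensities, the spot's background-corrected brightness divided by the 75th percentile of its array, so that 1 is that percentile. They compare 1 probe between lines and not different probes with each other. A probe was taken as measured where the scanner software called it well above background, and the lowest level so called was 0.0780 to 0.0826 over the 3 arrays. Of the 31 genes, 23 were measured in all 3 lines, 3 in some lines and 5 in none. SEMA3D, SEMA3E, SEMA6A, SEMA6D and PLXNC1 were the 5 not well above background in any line, so the main receptors or ligands of some pairs could not be followed. A gene was called up-regulated at a ratio to H1975 of at least 2 and down-regulated at a ratio of at most 0.5, the criteria of the study's methods. Where 1 side of a ratio was not well above background the ratio is a bound, written as at least or at most. For the 23 genes measured in all lines, the scanner's own error gave a technical SD of 0.20 to 0.36 for a log2 ratio, with a median of 0.21. That SD covers the measurement of 1 RNA on 1 array and not the spread between cultures. Scaling the arrays on spike-in probes in place of the 75th percentile shifts every log2 ratio of OR1 by -0.60, and the normexp background correction, which adds an offset, draws the ratios of dim probes toward 1; both are given where they end a call or move a value far.

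Probes of 3 genes cross exon junctions, so that their signal comes from spliced mRNA, and the probes of PLXNB1 and NRP1 are shown because the results below rest on them. On hg19 the ends of the PLXNB1 probe lie at chr3:48448440-48450737 and those of the NRP1 probe at chr10:33496622-33502350, so each 60-base probe spans at least 1 intron. The PLXNB1 probe was designed on NM_002673, and the NRP1 probe on NM_001024629.
PLXNB1: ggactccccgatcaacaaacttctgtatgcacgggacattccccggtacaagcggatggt
NRP1: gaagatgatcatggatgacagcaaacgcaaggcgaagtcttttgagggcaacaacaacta

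Semaphorins and their receptors moved in both directions, and 10 genes passed the ratio in both resistant lines. PLXNB1, PLXND1, SEMA3F and SEMA6B were up-regulated, and NRP2, SEMA4A, SEMA4C, SEMA4D, SEMA5B and SEMA7A were down-regulated. Up-regulation in both lines was met by 4 of the 26 genes measured in at least 1 line, 15.4%, against 5.09% of all 22418 genes so measured. Down-regulation in both lines was met by 6 of 26, 23.1%, against 6.32% of all genes. SEMA4A and SEMA4D entered this count through H1975 alone, the line in which they were high, so the shares over genes measured in at least 1 line are descriptions. Among the 23 genes measured in all lines 4 were up-regulated and 4 (NRP2, SEMA4C, SEMA5B and SEMA7A) down-regulated, 17.4% each, against 4.78% and 4.70% of all genes so measured. The family was chosen with earlier results of these data known, so these shares too are descriptions. OR1 and OR2 share the H1975 array, so an error of that array would move both ratios together. In OR1 alone 4 of 26 were up-regulated, against 8.95% of all genes, and 9 of 26 were down-regulated, against 9.34%. In OR2 alone the 4 up-regulated genes stood against 7.47% and the 6 down-regulated genes against 8.41% of all genes. SEMA3A, SEMA3C and SEMA4B were the 3 genes down-regulated in OR1 that were not past the ratio in OR2. Of the 23 genes measured in all lines, 12 lay between the ratios of 0.5 and 2 in both resistant lines. Over these 23 the log2 ratios had a median of -0.26 for OR1 and 0.02 for OR2, against 0.03 and -0.05 for the 18591 genes measured in all lines.

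**Figure D1:**
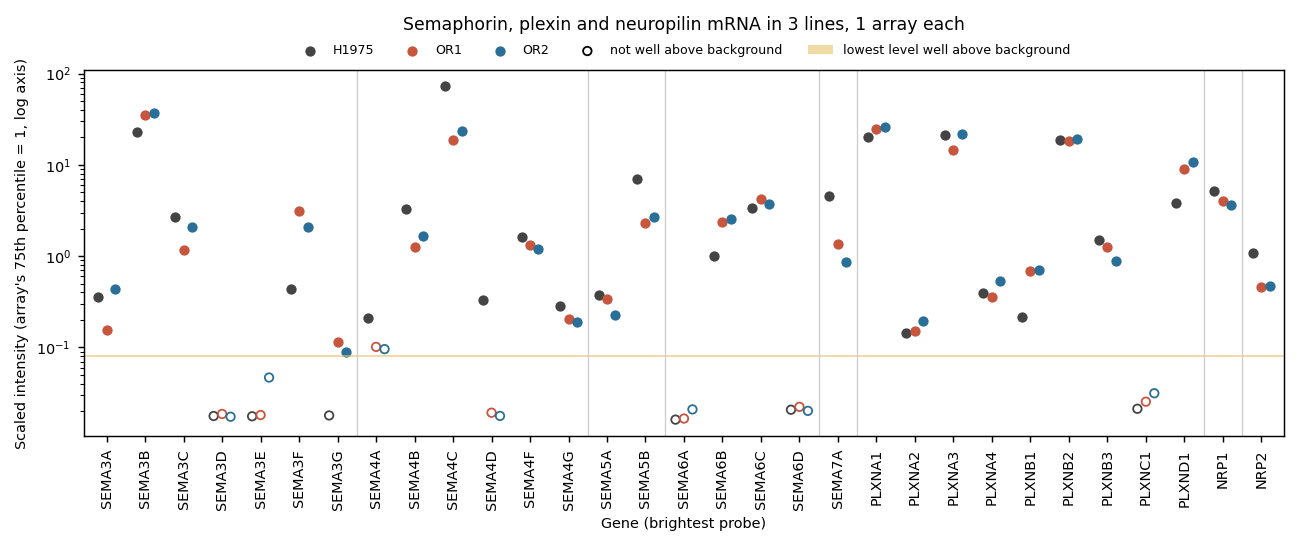
Scaled intensity of each gene in H1975, OR1 and OR2 on a log axis, 1 array per line, grouped by class, with filled points for brightest probes well above background and open points for those that were not; the horizontal band is the lowest level well above background. SEMA3F and PLXNB1 lie higher in both resistant lines than in H1975, and SEMA4C, SEMA4D and SEMA7A lie lower.

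Among the secreted semaphorins, SEMA3F, a ligand of NRP2 that inhibits tumour growth and vessel formation in model systems, showed the highest ratio among the 23 genes measured in all lines. Its scaled intensity was 0.432 in H1975, against 3.13 in OR1 and 2.11 in OR2. Both resistant lines lay above H1975, at ratios of 7.24 in OR1 (log2 2.86, technical SD 0.22) and 4.88 in OR2 (log2 2.29, technical SD 0.22). With normexp they were 3.98 and 3.03, and with spike-in scaling the OR1 ratio was 4.77. SEMA3B, the neighbouring gene, was at 22.9 in H1975, against 34.8 in OR1 and 37.0 in OR2. Its ratios of 1.52 and 1.61 were not past 2, and the OR1 ratio was 1.0 when arrays were scaled on the spike-in probes. SEMA3G, a further secreted ligand on the same chromosome arm, could not be told from background in H1975 and was measured at 0.115 in OR1 and 0.0894 in OR2, at ratios of at least 1.44 and at least 1.12.

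SEMA3A, the ligand of NRP1 and class A plexins that collapses growth cones, differed between the resistant lines. Its scaled intensity was 0.356 in H1975, against 0.154 in OR1 and 0.438 in OR2. OR1 was below H1975 at a ratio of 0.432, and OR2 was above at 1.23, so that OR2 over OR1 was 2.85 (technical SD 0.29 on the log2 scale). This was the only gene of the family past 2 between OR2 and OR1, where 2.37% of all genes were past 2 and 2.76% were at 0.5 or below. With normexp the OR1 ratio was 0.796, no longer past 0.5, and the ratio between the resistant lines was 1.39. SEMA3C, another secreted semaphorin, was at 2.66 in H1975, against 1.16 in OR1 and 2.08 in OR2. SEMA3C had a ratio of 0.435 in OR1, or 0.523 with normexp, and of 0.783 in OR2.

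Class 4 semaphorins are transmembrane ligands mainly of B-type plexins. The 4 of them measured in all lines were lower in both resistant lines, under every scaling of the arrays that was tried. Of all 18591 genes so measured, 8871 were lower than H1975 in OR1 and 10016 in OR2. SEMA4A and SEMA4D were well above background in H1975 alone, so their bounds could only lie below 1. SEMA4C, a ligand of PLXNB2, was at 72.6 in H1975, against 18.6 in OR1 and 23.5 in OR2. Its probe was spotted 10 times on each array. The spots ran from 66.9 to 75.4 in H1975, from 17.9 to 19.3 in OR1 and from 22.5 to 24.7 in OR2. These spots repeat the measurement of 1 RNA on 1 array and are not replicates of a line. The ratios were 0.256 in OR1 (log2 -1.96) and 0.324 in OR2 (log2 -1.63), each with a technical SD of 0.20. SEMA4D, the ligand of PLXNB1, was measured in H1975 alone at 0.332. Its ratios were at most 0.249 and at most 0.235, and a further SEMA4D probe was not well above background in any line. SEMA4A, known mainly from immune cells, was at 0.210 in H1975 and not well above background in the resistant lines, at ratios of at most 0.484 and at most 0.457. With normexp the ratios of SEMA4D were 0.677 and 0.615 and those of SEMA4A 0.879 and 0.80, no longer past 0.5.

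SEMA4B was at 3.25 in H1975, against 1.26 in OR1 and 1.66 in OR2. SEMA4B passed 0.5 in OR1, at 0.387, and narrowly not in OR2, at 0.511, and another probe of the gene gave 0.396 and 0.533. SEMA4F and SEMA4G were nearer to H1975, with ratios of 0.816 and 0.755 for SEMA4F and of 0.720 and 0.656 for SEMA4G.

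Of the class 5 semaphorins, which carry thrombospondin repeats, SEMA5B was down-regulated and SEMA5A was not. SEMA5B was at 6.96 in H1975, against 2.29 in OR1 and 2.69 in OR2. The ratios were 0.329 and 0.386, and 0.405 and 0.458 with another probe. SEMA5A, a ligand of PLXNB3, was at 0.378, 0.339 and 0.228, at ratios of 0.897 and 0.602. In class 6, whose members bind class A plexins, SEMA6B was at 1.0 in H1975, against 2.34 in OR1 and 2.52 in OR2. The ratios of SEMA6B were 2.34 and 2.52, each with a technical SD of 0.21. In OR1 the ratio was 1.54 with spike-in scaling and 1.94 with normexp, and a dimmer SEMA6B probe was well above background in OR1 only, at a ratio of at least 1.47. SEMA6C had ratios of 1.25 and 1.1 (0.822 in OR1 with spike-in scaling), and its other probe lay on the other side, at 0.859 and 0.704.

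SEMA7A, the lipid-anchored semaphorin that binds PLXNC1 and integrins containing ITGB1, was at 4.57 in H1975, against 1.37 in OR1 and 0.856 in OR2. Both resistant lines were below H1975, at ratios of 0.30 (log2 -1.74) and 0.187 (log2 -2.42), each with a technical SD of 0.21. OR2 was lower than OR1 at a ratio of 0.625, which was not past 0.5. Of its receptors, PLXNC1 was not well above background in any line, and ITGB1 was at 4.64, 5.48 and 6.26, at ratios of 1.18 and 1.35.

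Of the receptors, PLXNB1 and PLXND1 were up-regulated in both lines. By its brightest probe none of the 8 measured plexins was down-regulated. Among all genes 9.34% were in OR1 and 8.41% in OR2, so none of 8 is near the share of all genes. Another PLXNA4 probe was down-regulated in both lines (at most 0.118 and at most 0.112), and PLXNA3 was in OR1 with spike-in scaling, at 0.452. PLXNB1 was at 0.216 in H1975, against 0.683 in OR1 and 0.699 in OR2. The resistant lines had ratios of 3.16 and 3.23, each with a technical SD of 0.25, and these were 1.76 and 1.77 with normexp. PLXND1, which binds SEMA3E directly and is best known from blood vessels, was at 3.86 in H1975, against 8.97 in OR1 and 10.696 in OR2, with its ligand SEMA3E not well above background in any line. The ratios of PLXND1 were 2.32 and 2.77, each with a technical SD of 0.20, and the OR1 ratio was 1.53 with spike-in scaling.

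The other plexins lay between the ratios of 0.5 and 2 by their brightest probes. PLXNB2, the receptor of SEMA4C, was at 18.5, 18.4 and 19.0, at ratios of 0.991 and 1.03, differences far inside its technical SD of 0.20, with 0.653 in OR1 under spike-in scaling. PLXNA1 was at 19.96 in H1975, against 24.8 in OR1 and 26.1 in OR2, and its ratio of 1.24 in OR1 became 0.820 with spike-in scaling. PLXNA3 was at 21.3, 14.6 and 21.6, so that only OR1 lay apart, at a ratio of 0.685. PLXNB3 had ratios of 0.836 and 0.586, and PLXNA2 of 1.07 (0.705 with spike-in scaling) and 1.36.

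PLXNA4 depended on the probe. Its brightest probe by the mean over arrays, at chr7:131825488-131825547, gave 0.393 in H1975, against 0.358 in OR1 and 0.533 in OR2, at ratios of 0.910 and 1.35. Another probe designed on the same transcript, at chr7:131814453-131814512, gave 0.698 in H1975 and was not well above background in the resistant lines, at ratios of at most 0.118 and at most 0.112. The remaining 3 PLXNA4 probes were not well above background in any line, so no direction is given for this gene.

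The neuropilins were both lower in the resistant lines by their brightest probe. NRP2, the co-receptor of SEMA3F, was at 1.08 in H1975, against 0.460 in OR1 and 0.470 in OR2. Its ratios were 0.424 and 0.433, each with a technical SD of 0.21, while with normexp both were 0.58. Another NRP2 probe, at chr2:206659703-206659762, gave at most 0.173 in OR1 and 0.325 in OR2, and the probe at chr2:206608080-206608139 gave 0.483 and 0.517. NRP1, the co-receptor of SEMA3A, was at 5.22, 3.98 and 3.65, at ratios of 0.761 and 0.70. A further NRP1 probe gave 0.801 and 1.02, on opposite sides of 1. With normexp the OR2 ratio of the gene was 1.03, but the brightest probe was picked again there and may be the further probe.

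**Figure D2:**
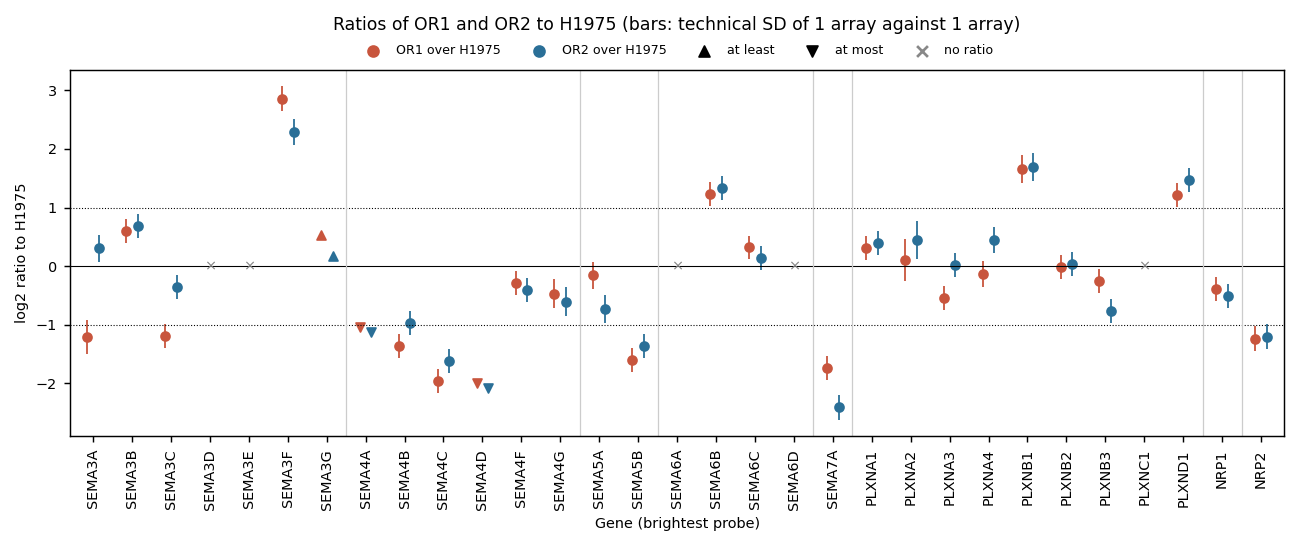
Log2 ratio of OR1 and of OR2 to H1975 for each gene, 1 array against 1 array, with dotted lines at log2 ratios of 1 and -1 (ratios of 2 and 0.5), bars for the technical SD, triangles for bounds and crosses where no ratio was formed. Among genes with a measured ratio SEMA3F has the highest, 7.24 and 4.88. The 4 class 4 semaphorins measured in all lines lie below 0, as they did under every scaling tried, and the bounds of SEMA4A and SEMA4D could only lie there.

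**Figure D3:**
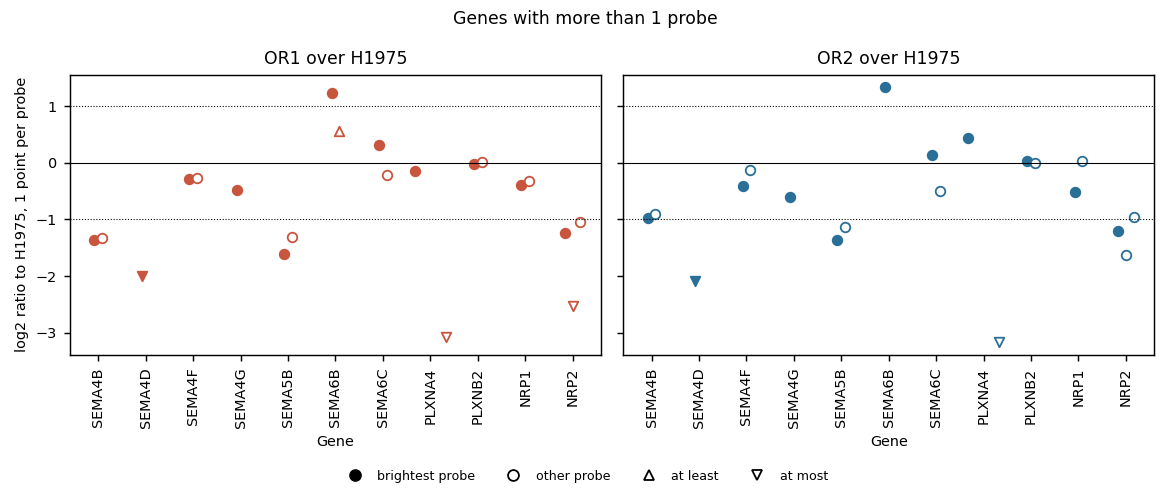
Log2 ratio to H1975 of each probe of the 11 genes with more than 1 probe, in OR1 (left) and OR2 (right), with filled points for the brightest probe, open points for the others and triangles for bounds; probes not well above background on either side are not drawn. All drawn probes of NRP2, SEMA4B, SEMA4F and SEMA5B lie below 0 in both lines, and those of PLXNA4 disagree, with ratios of at most 0.118 and at most 0.112 for 1 of them.

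Some ligands and receptors described above are known to bind each other, and these pairs were chosen with their values known. SEMA3F was up-regulated while its co-receptor NRP2 was down-regulated. PLXNB1 was up-regulated while its ligand SEMA4D was down-regulated and not well above background in either resistant line. With normexp NRP2 and SEMA4D were not past 0.5 and PLXNB1 was not past 2. SEMA4C was down-regulated while the ratios of its receptor PLXNB2 were close to 1. MET, a signalling partner of PLXNB1, was at 73.6 in H1975, against 31.8 in OR1 and 42.8 in OR2, at ratios of 0.432 and 0.582, and ERBB2 had ratios of 0.556 and 0.597. These comparisons are of mRNA, and no protein was measured on these arrays.

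The sequence before the transcription start is shown for 4 genes that passed the ratio in both lines, the up-regulated SEMA3F and PLXNB1 and the down-regulated SEMA4C and SEMA7A. Each is the 250 bases before the most upstream RefSeq start on GRCh38.p14, 5′ to 3′ on the gene's strand, and capitals mark matches to GGGCGG (the GC box bound by SP1) or CACCTG (an E-box bound by SNAI and ZEB factors) on either strand. The SEMA3F window is chr3:50154808-50155057 on the plus strand, and the others are chr3:48430087-48430336, chr2:96870081-96870330 and chr15:74433959-74434208 on the minus strand.
SEMA3F: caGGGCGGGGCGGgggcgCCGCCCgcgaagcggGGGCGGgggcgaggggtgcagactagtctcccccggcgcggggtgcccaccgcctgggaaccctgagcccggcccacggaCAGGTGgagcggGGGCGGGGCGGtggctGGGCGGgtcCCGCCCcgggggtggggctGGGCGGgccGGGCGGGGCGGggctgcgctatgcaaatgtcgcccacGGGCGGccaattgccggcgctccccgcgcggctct
PLXNB1: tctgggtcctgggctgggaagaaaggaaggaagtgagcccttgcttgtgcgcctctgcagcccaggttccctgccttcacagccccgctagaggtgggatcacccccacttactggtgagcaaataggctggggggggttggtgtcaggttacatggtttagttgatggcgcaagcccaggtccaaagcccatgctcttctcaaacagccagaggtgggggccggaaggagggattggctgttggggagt
SEMA4C: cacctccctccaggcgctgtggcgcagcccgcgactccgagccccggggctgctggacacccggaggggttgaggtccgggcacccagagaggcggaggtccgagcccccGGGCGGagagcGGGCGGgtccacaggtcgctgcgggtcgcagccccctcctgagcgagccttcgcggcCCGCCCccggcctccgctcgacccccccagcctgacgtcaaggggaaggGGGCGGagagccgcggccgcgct
SEMA7A: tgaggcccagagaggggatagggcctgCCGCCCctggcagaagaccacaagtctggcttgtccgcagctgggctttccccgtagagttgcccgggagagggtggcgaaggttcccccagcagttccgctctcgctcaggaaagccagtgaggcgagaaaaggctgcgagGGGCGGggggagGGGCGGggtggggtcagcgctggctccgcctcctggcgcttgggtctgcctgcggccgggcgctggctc

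The SEMA3F window was 82.0% G or C and held 12 matches to GGGCGG and 1 to CACCTG, and that of PLXNB1 was 59.6% G or C with no match to either. A further RefSeq start of PLXNB1, with its window at chr3:48429345-48429594, had 79.2% G or C and 5 matches to GGGCGG. Further starts of SEMA3F had windows of 80.4% G or C with 2 matches to GGGCGG and of 52.8% with 0, and neither held CACCTG. The windows of SEMA4C, at 78.0%, and SEMA7A, at 70.0%, held 4 and 3 matches to GGGCGG. A further start of SEMA7A had 77.6% G or C and 4 matches. RefSeq windows were found for 27 of the 31 genes, 48 windows in all, since some genes have several starts, and none was found for NRP1, SEMA3A, SEMA6A and SEMA6B. GGGCGG (or CCGCCC), with overlapping matches counted, was in 62.5% of the 48 windows, against 42.6% of all 35116. CACCTG (or CAGGTG) was in 12.5% against 17.5%, and CACGTG, the E-box bound by MYC, in 6.25% against 6.34%. TGACTCA (or TGAGTCA), the AP-1 motif, was in 0 of the 48 windows and in 4.2% of all. The median G and C content was 64.8% over the windows of the family and 58.0% over all.

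By position, 7 of the genes lie on chromosome 3 and 5 on chromosome 7. On chromosome 3 the ratios of SEMA3F, PLXNB1 and PLXND1 were above those of all of their 20 nearest measured genes in both lines. The 20 genes around SEMA3F, within 0.170 Mb, had log2 ratios from -0.62 to 1.23 in OR1, with a median of 0.49, and a median of 0.36 in OR2. Those around PLXNB1 had medians of 0.46 and 0.26, and those around PLXND1 of -0.13 and -0.04. SEMA5B, on the same chromosome, lay below all 20 of its neighbours in both lines, whose medians were -0.02 and -0.06. SEMA4C was below 20 of its neighbours in OR1 and 19 in OR2, and SEMA7A below 19 in each line. The genes compared here had already been called past the ratio, so a place above or below their neighbours follows in part from that choice.

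On chromosome 7, SEMA3A and SEMA3C had neighbours that were also lower in OR1. The 20 genes around SEMA3A, within 6.21 Mb, had median log2 ratios of -1.0 and -0.35, and 15 of them lay above SEMA3A in OR1 against 1 in OR2. Around SEMA3C the medians were -0.50 and -0.33, with 16 and 11 neighbours above the gene. Copy number was not measured, and its part in these ratios was not tested.

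**Figure D4:**
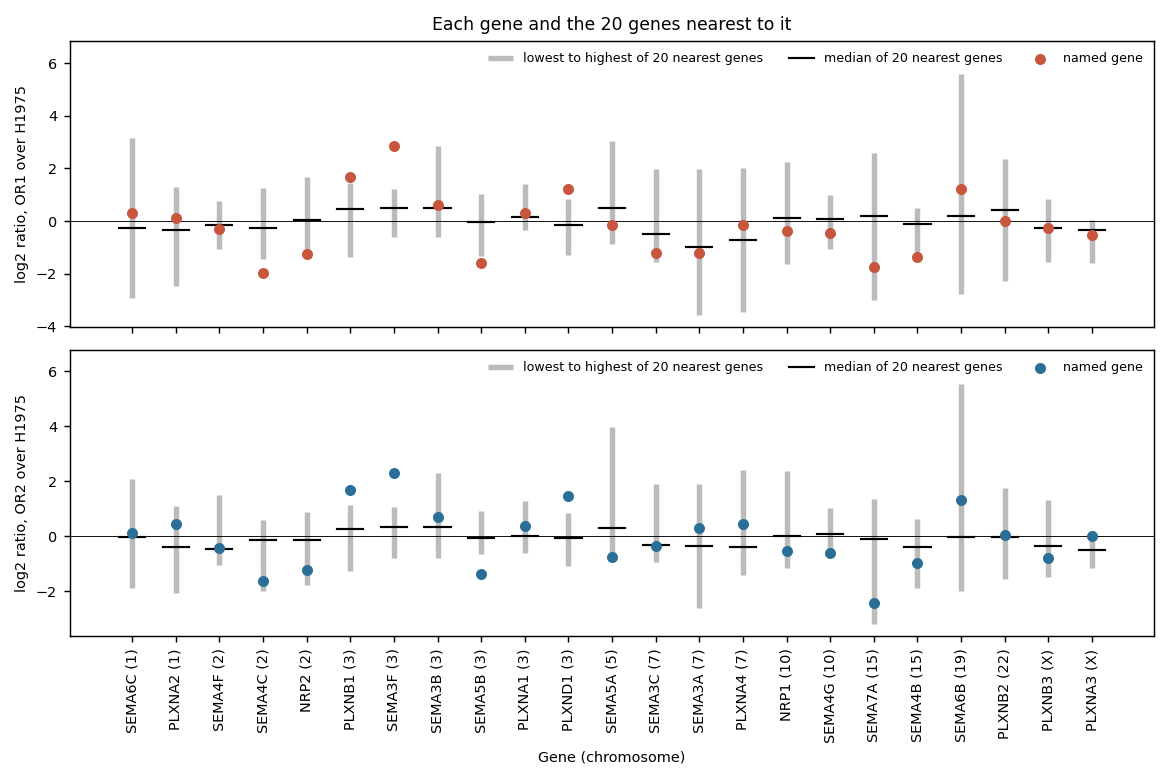
Log2 ratio to H1975 of each of the 23 genes measured in all lines (coloured points), in OR1 (top) and OR2 (bottom), with the range (grey bars) and median (black lines) of its 20 nearest measured genes and its chromosome in parentheses. SEMA3F, PLXNB1 and PLXND1 lie above the range of their neighbours and SEMA5B below it in both lines, while SEMA3A in OR1 lies inside a range whose median is -1.0.

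The other genes of the pathway gave a mixed picture. Among all genes measured in at least 1 line, 11.4% passed the ratio in both lines in the same direction. The lists of this paragraph are short, and their counts of 0 or 1 lie near that share. Of 17 further receptors and co-receptors of semaphorins, 8 were measured and 0 passed the ratio in both lines, with L1CAM, a cell adhesion partner of NRP1, at ratios of 1.54 and 2.53. Of 5 VEGF-family ligands of neuropilins, 3 were measured and 0 passed in both lines, and VEGFA was at 10.3 in H1975, against 7.84 in OR1 and 3.65 in OR2, at ratios of 0.765 and 0.356. Of 7 proteases that process semaphorins or their receptors, 6 were measured and PCSK5, a proprotein convertase, was the 1 past the ratio. PCSK5 was at 14.1 in H1975, against 0.210 in OR1 and 0.357 in OR2, at ratios of 0.0149 and 0.0254. Another PCSK5 probe gave 0.0606 and 0.0572, and normexp gave 0.0395 and 0.0474. FURIN, the convertase best known for cleaving class 3 semaphorins, had ratios of 0.753 and 0.623.

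Of 33 intracellular effectors, 28 were measured. OR1 had 4 of these up-regulated and 2 down-regulated, and OR2 had 5 and 4. Calls shared by the 2 lines numbered 4 upward and 2 downward. Among all genes measured in at least 1 line, such shared calls made up 5.09% and 6.32%. RANBP9 (2.11), RHOD (0.320) and FYN (0.0962) were past the ratio in OR2 only. The small GTPases MRAS and RRAS2, of the R-Ras family on which plexins act, had ratios of 4.63 and 3.36 and of 2.88 and 2.62. MRAS was at 1.94 in H1975, against 8.98 in OR1 and 6.51 in OR2. ARHGEF12, a guanine nucleotide exchange factor bound by B-type plexins, had ratios of 2.14 and 2.79. DPYSL2, a mediator of SEMA3A signalling also called CRMP2, was at 2.55 and 3.0, whereas its relative DPYSL3 was at 0.179 and 0.286. LIMK1, the kinase that phosphorylates cofilin, was at 41.8 in H1975, against 8.12 in OR1 and 7.87 in OR2, at ratios of 0.195 and 0.189. With spike-in scaling the OR1 ratios of DPYSL2, ARHGEF12 and RRAS2 were 1.68, 1.41 and 1.90, no longer past 2, and ARHGEF12 was also below 2 in OR1 with median scaling, at 1.99, and in both lines with normexp, at 1.33 and 1.39.

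For comparison, the other guidance families, Slit, Robo, netrin and the netrin receptors, had 20 genes on the array, of which 13 were measured. OR1 had 4 of these up-regulated and 4 down-regulated, and OR2 had 5 and 4. Calls shared by the 2 lines numbered 3 upward and 4 downward, against all-gene shares of 5.09% and 6.32%. ROBO3 (2.24) was past the ratio in OR1 only, and NTNG2 (5.17) and UNC5C (at least 2.69) in OR2 only. ROBO4 (14.8 and 6.55) and UNC5B (3.79 and 7.01) were among the higher ratios, with ROBO1 at least 3.05 and at least 2.53. The lower ratios were those of NTN1 (0.0210 and 0.0410), SLIT3 (0.174 and 0.122), NTN4 (0.168 and 0.228) and UNC5A (at most 0.113, and 0.270). With normexp ROBO1 had 1.48 and 1.29, and UNC5A 0.422 and 0.507, which ended their calls. Normexp also gave 4.30 and 2.38 for ROBO4, 2.2 and 3.69 for UNC5B, 0.412 and 0.351 for SLIT3, and 0.0458 and 0.0636 for NTN1.

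**Figure D5:**
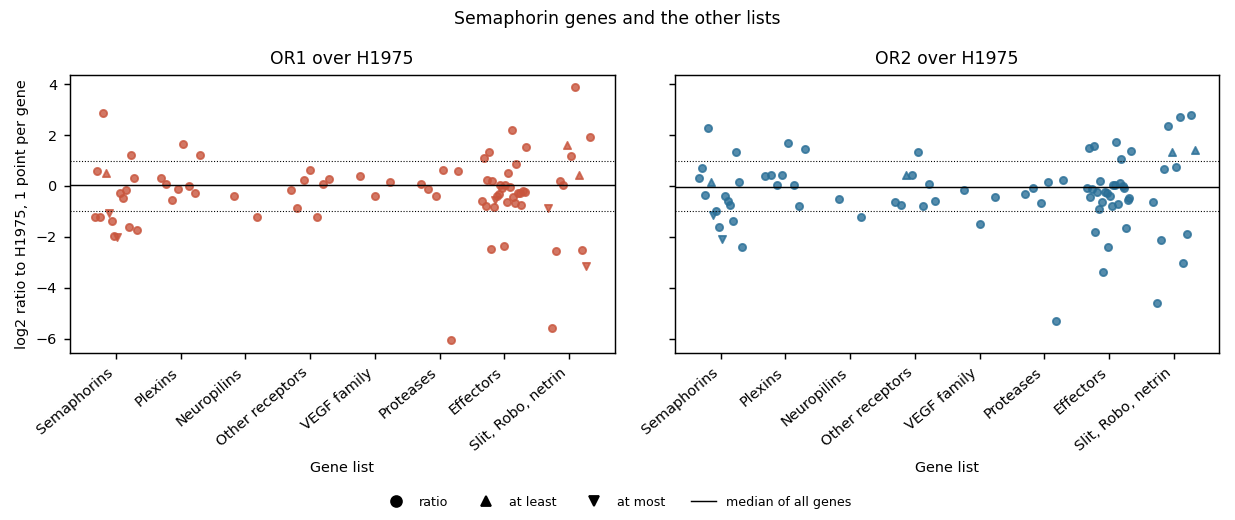
Log2 ratio to H1975 of each measured gene of the semaphorins, plexins, neuropilins and the other lists, 1 point per gene, in OR1 (left) and OR2 (right), with triangles for bounds, dotted lines at 1 and -1 and a solid line at the median of all genes. No plexin lies at or below -1 (PLXNA3 did in OR1 with spike-in scaling), where 9.34% of all genes were down-regulated in OR1 and 8.41% in OR2. The lowest point of the proteases is PCSK5, at ratios of 0.0149 and 0.0254.

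The lines were checked against cell type markers. All 8 epithelial markers of lung adenocarcinoma were well above background in every line. Their summed scaled intensity was 2486 in H1975, against 1073 in OR1 and 1072 in OR2. The sum adds different probes, so the brightest weigh most. It fell mostly through KRT7 and KRT19. In the order H1975, OR1 and OR2, KRT7 was at 835, 137 and 142, and KRT19 at 952, 441 and 469. EPCAM was at 121, 4.46 and 8.75, and CDH1, the epithelial cadherin, at 35.8, 0.734 and 2.87, lower in the same lines in which SEMA4C, SEMA7A and NRP2 were lower, while KRT18 was at 476, 421 and 384. The list did not move as 1: KRT8 was at 60.5, 67.8 and 58.3, NKX2-1 at 5.29, 1.33 and 7.22, and NAPSA at 0.236, 0.182 and 0.37. The part of this epithelial difference in the semaphorin and plexin ratios was not tested. Of 6 fibroblast markers, 2 were well above background in H1975, against 3 in OR1 and 1 in OR2, with a summed scaled intensity of 4.27, 4.96 and 0.646 and with DCN, THY1 and COL3A1 not well above background in any line. Endothelial markers (3 of 4 measured) summed to between 0.596 and 0.729, leukocyte markers (3 of 4) to 3.67, 8.80 and 13.5, mostly through CD14, and neuronal markers (3 of 4) to 140, 38.1 and 75.9, mostly through TUBB3. All 3 arrays were on 1 slide, with 45.6% to 45.9% of their 58200 probes well above background.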

How the data were processed

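RNA of H1975, OR1 and OR2 was labelled with Cy3 by the authors and hybridized to single-colour Agilent arrays, 1 for each line. The deposited intensity of each spot is the background-corrected output of Agilent Feature Extraction, whose version is 10.7.1.1 per the file headers and 9.5.1.1 per the submitters' processing notes, and is not scaled between arrays. A second deposited table holds the authors' normalized intensity per probe on a linear scale, whose method is not given in the sources used here; it was used as an alternative. Control and outlier spots were left out (45 to 61 of 60901 spots per array), 0 spots were saturated, spots of the same probe were averaged on the log2 scale, and the 75th percentile of the array was taken off. The brightest probe by the mean over the 3 arrays stood for each gene, and it was picked again under each other scaling or background correction. 20 genes of the family had 1 probe and 11 had more than 1, 46 in all.

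Each resistant line was compared with H1975 by ratios of 2 and 0.5, without a test, since that comparison has 1 array on each side. A limma fit of both resistant lines together against H1975 was an alternative. A bound uses, for the side not well above background, the higher of its own value and the lowest level called well above background. The technical SD comes from the software's error estimate. Probe positions are those of the files, on hg19. Promoter windows are from RefSeq on GRCh38.p14. Scripts ran in Python 3.11.15 and R 4.3.3 with limma 3.58.1, and were tested on simulated data. All members of the family are named, and the other lists name the genes past the ratio in both lines and known partners of the members. Effectors and other guidance genes past the ratio in a single line are named as well. Members and lists were chosen with earlier results of these data known. Alternatives covered scaling, background correction, filters, choice of probe, the ratio and limma. Array number, not depth, limits the precision.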

Additional observations from a re-analysis of the deposited data

Results flagged for a closer look

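SEMA3A was lower than H1975 in OR1 and higher in OR2, with a ratio of OR2 to OR1 of 2.85; the difference was not tested, since each line had 1 array. Antisense transcripts with probes of their own were outside the comparisons of the family, but SEMA3B-AS1 was among the 20 genes around SEMA3F and had the highest log2 ratio of these in OR1, 1.23. SEMA3B-AS1 was well above background at scaled intensities of 0.178, 0.417 and 0.375 in the order H1975, OR1 and OR2, ratios of 2.34 and 2.10. SEMA6A-AS1 was well above background at 0.182, 0.199 and 0.179, ratios of 1.1 and 0.986, while SEMA6A itself was not well above background in any line.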

How the results depend on the processing

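The 4 up-regulated and 6 down-regulated genes were the same genes with quantile normalization, median scaling, no scaling, the authors' normalized intensities, and outlier spots kept. The authors' intensities gave nearly the result of quantile normalization, with an all-gene median log2 ratio in OR1 of 0.0432 under both, so these are hardly separate checks. Keeping outlier spots shifted that median by only -0.00039. The filter on all 3 arrays gave 4 and 4, no filter 5 and 6, the median over probes 3 and 6, and a ratio of 1.5 with its inverse 5 and 7. Spike-in scaling, which shifted the all-gene median for OR1 by -0.60 on the log2 scale (no scaling by -0.19, median scaling by -0.11) and took the share of up-regulated among all called genes from 44.6% to 27.2%, left 2 up-regulated (without PLXND1 and SEMA6B) and 6 down-regulated genes, and a median log2 ratio of the family in OR1 of -0.86. With normexp 2 were up-regulated (without PLXNB1 and SEMA6B) and 3 down-regulated (without NRP2, SEMA4A and SEMA4D). With the second-brightest probe, which 11 genes have, 0 were up-regulated and 2 down-regulated (SEMA5B and PLXNA4). A ratio of 4 left 1 up-regulated (SEMA3F) and 1 down-regulated (SEMA4D). The median log2 ratio in OR2, 0.02, turned to -0.24 with the median over probes and -0.51 with the second-brightest probe. A limma fit took OR1 and OR2 as samples of 1 resistant group, with 1 residual degree of freedom. H1975 had 1 array, so each gene's spread in the fit was that between OR1 and OR2 alone, and only log2 differences are given. The up-regulated genes had 2.57 (SEMA3F), 1.67 (PLXNB1), 1.34 (PLXND1) and 1.28 (SEMA6B). The down-regulated genes had -4.16 (SEMA4D), -2.08 (SEMA7A), -1.79 (SEMA4C), -1.49 (SEMA5B), -1.22 (NRP2) and -1.09 (SEMA4A). The fit uses measured values below background, which bear on SEMA4D, SEMA4A and SEMA3G (2.50), genes that have only bounds. Of the single-gene ratios over all alternatives, 795 moved by less than the technical SD and 106 by more. These include genes of the other lists past the ratio in both lines. Part of the 795 was fixed in advance. Leaving out saturated spots (81 ratios) could change nothing, and the 2 other background filters (71 and 74) left ratios measured on both sides as they were. The technical SD is also wide for dim genes, so a bound can move far and still count among the 795. None of the ratios past 2 or 0.5 changed direction, but 9 ratios nearer to 1 did in at least 1 alternative (18 times in all), those of PLXNA1 and PLXNA2 in OR1, NRP1 in OR2, and PLXNA4, PLXNB2 and SEMA6C in both lines. No paired analysis was possible because each line had 1 array. The dim genes SEMA4A, SEMA4D and SEMA3G are limited by background.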
